A study of Mus musculus with 6 samples.

Results

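Oligodendrocytes wrap axons in myelin, and in the mouse forebrain most of them begin to do so in the first weeks after birth. Precursors that express Pdgfra and Cspg4 pass through a committed stage marked by Gpr17, Neu4 and Bmp4, become newly formed oligodendrocytes that express Tcf7l2, Itpr2 and Enpp6, and then switch on the full set of myelin genes, among them Mbp, Mobp, Mag and Mog. Mature cells add Anln, Hapln2, Trf, Apod and Car2. The nuclei described here were picked out between these stages by Casr, the calcium-sensing receptor, Cemip2, a cell-surface hyaluronidase, and Cnksr3, a scaffold protein of kinase signaling.

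Brains were taken from C57BL/6 S-56 mouse pups injected into a lateral ventricle at postnatal day 7 with lysophosphatidic acid (LPA), a bioactive lipid used to model post-hemorrhagic hydrocephalus, or with vehicle, and collected at day 15. Each group held 3 libraries, and single nuclei that did not carry NeuN, a neuronal nuclear protein, were sorted from the frozen brain without olfactory bulbs and cerebellum and sequenced by the 10x Genomics 3′ method. The LPA concentration given to these pups was not stated for this experiment, and no label ties a library to a litter or a sex, so that p-values measure the spread between these 6 libraries. Xist, expressed from the inactive X chromosome, placed LPA replicates 2 and 3 and vehicle replicate 2 among females, at 2543, 2464 and 2822 normalized counts after scaling to library size, and the other 3 libraries were at 0.99 or below.

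A nucleus was counted as a Casr/Cemip2/Cnksr3 oligodendrocyte when it had at least 2 unique molecular identifiers (UMIs, 1 per captured RNA molecule) of Mog and Mag together and at least 4 of Casr, Cemip2 and Cnksr3 together. It could have no more than 1 UMI of Anln and Hapln2, 2 of Gpr17, Neu4 and Bmp4, and 1 of Pdgfra and Cspg4. Of 60724 nuclei with at least 300 genes and at most 1% mitochondrial UMIs, 4101 met the rule. Replicates 1, 2 and 3 gave 478, 665 and 610 of them after LPA and 674, 877 and 797 after vehicle. Their median depth was 7167, 6779 and 7123 UMIs in the LPA libraries and 5965, 5693 and 4919 in the vehicle libraries, so that every LPA library was deeper per nucleus than every vehicle library. At most 1 barcode of these nuclei was shared by any pair of libraries.

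The nuclei were selected on measured values, so the 12 genes in the rule are given as a description only. Cnksr3 carried 60.9% of the UMIs summed over the 3 selecting genes, Cemip2 35.2% and Casr 3.90%. A Cnksr3 UMI was found in 99.5% of the nuclei, a Cemip2 UMI in 74.7% and a Casr UMI in 48.3%, so that 2120 of the 4101 nuclei were chosen without any Casr UMI. In Anln/Hapln2 nuclei, which had at least 2 UMIs of Anln and Hapln2 and stand for mature oligodendrocytes here, 2.95% had a Casr UMI. Nuclei with Mog or Mag but fewer than 4 UMIs of the selecting genes, called low nuclei below, had one in 2.51%. The levels of the selecting genes varied little between libraries. Casr stood at 165, 213 and 180 CPM (UMIs of a gene summed over the nuclei of a library and scaled to the same total UMIs in every library) in the LPA libraries and at 163, 164 and 197 CPM in the vehicle libraries.

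The 316 nuclei just inside the limit, with 4 UMIs of the selecting genes, held 431 CPM of Tcf7l2, 1087 CPM of Mog and 242 CPM of Opalin. The 536 low nuclei just outside, with 3, held 259, 1125 and 249 CPM. Mog and Opalin thus lay close across the limit, while Tcf7l2 was lower outside and Slc1a2, an astrocyte gene, was higher outside (643 CPM inside and 1066 CPM outside). The median nucleus lay well inside, at 25 UMIs.

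Promoter sequences are shown for 2 of the selecting genes and for Opalin and Mog, a pair of myelin genes whose levels ran the other way among these nuclei. Each runs 5′ to 3′ on the strand of its gene over 300 bases around the start (RefSeq, GRCm38.p6). Capitals mark ACAAAG or its reverse complement, the core of sites bound by Sox factors such as Sox10. Casr lies at chr16:36562085-36562384, Cnksr3 at chr10:7212188-7212487, Opalin at chr19:41077064-41077363 and Mog at chr17:37023349-37023648, all on the minus strand.
Casr: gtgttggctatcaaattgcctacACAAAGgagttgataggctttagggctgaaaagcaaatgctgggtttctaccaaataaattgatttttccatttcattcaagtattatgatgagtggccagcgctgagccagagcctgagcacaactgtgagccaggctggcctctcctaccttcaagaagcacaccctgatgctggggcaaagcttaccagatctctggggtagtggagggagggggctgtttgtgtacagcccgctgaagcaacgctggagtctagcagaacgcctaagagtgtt
Cnksr3: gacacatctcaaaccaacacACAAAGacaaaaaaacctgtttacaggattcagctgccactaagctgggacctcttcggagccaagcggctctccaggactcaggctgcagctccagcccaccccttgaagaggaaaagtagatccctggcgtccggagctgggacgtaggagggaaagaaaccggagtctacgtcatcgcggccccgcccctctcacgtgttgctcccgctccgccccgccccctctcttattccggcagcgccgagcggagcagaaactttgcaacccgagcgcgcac
Opalin: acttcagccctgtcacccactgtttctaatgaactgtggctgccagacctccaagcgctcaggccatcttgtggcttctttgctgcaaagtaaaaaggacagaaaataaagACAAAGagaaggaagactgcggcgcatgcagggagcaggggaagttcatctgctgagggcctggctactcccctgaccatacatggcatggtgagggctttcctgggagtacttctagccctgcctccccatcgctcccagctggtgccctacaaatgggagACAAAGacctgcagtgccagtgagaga
Mog: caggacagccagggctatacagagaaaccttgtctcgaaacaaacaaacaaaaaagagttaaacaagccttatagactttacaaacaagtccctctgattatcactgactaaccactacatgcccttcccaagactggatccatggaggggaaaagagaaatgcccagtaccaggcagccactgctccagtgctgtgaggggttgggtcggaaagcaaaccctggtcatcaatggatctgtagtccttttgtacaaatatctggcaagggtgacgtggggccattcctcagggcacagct
Casr and Cnksr3 each held 1 match, Opalin held 2 and Mog held 0, and 18.7% of 32851 promoters of this length held at least 1. ATCAAAG, the core of sites of Tcf/Lef factors such as Tcf7l2, searched on both strands and not overlapping the other motif, was found in none of the 4 windows and in 3.73% of all promoters. These matches describe letters in the windows and were not tested for binding.

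The label of myelin-forming oligodendrocytes was checked against stage markers. The nuclei carried the myelin genes at high levels, with Mbp at 8584 ± 228 CPM (SD, n = 6 libraries) and Mobp at 2729 ± 77.9 CPM. They also carried Tcf7l2, Itpr2, Rras2 and 9630013A20Rik, markers of newly formed oligodendrocytes, at levels far above those of the Anln/Hapln2 nuclei, and Enpp6, another such marker, at a level 1.36-fold higher, while the mature markers were low. Committed precursor and precursor markers were limited by the rule, and Gpr17 was at 60.7 ± 6.3 CPM and Pdgfra at 7.1 ± 1.4 CPM. Newly formed and myelin genes thus led together, and the nuclei are called here by the 3 genes that selected them.

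Next, the nuclei were set beside Anln/Hapln2 nuclei (3387 nuclei), and no test was made because the rule separates the groups. Of 7285 genes outside the rule with a mean of at least 20 CPM in either group, 318 (4.37%) were at least 2-fold higher on average and higher in each of the 6 libraries, and 428 (5.88%) were lower by the same measure. Of 21 newly formed oligodendrocyte genes, 15 were higher by this measure and 1, Lims2, was lower, and the median log2 ratio of the list was 1.78 beside -0.11 over all genes. Of 26 measured genes of the mature list, 15 were lower and 0 higher, with a median log2 ratio of -1.73.

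Tcf7l2, a transcription factor at the end of the Wnt pathway that is transiently high as oligodendrocytes differentiate, stood at 2138, 2399 and 2235 CPM in the LPA libraries and at 2321, 2147 and 2122 CPM in the vehicle libraries. In Anln/Hapln2 nuclei it stood at 136, 163 and 146 CPM and at 199, 175 and 175 CPM, 13.4-fold lower on average, and the lowest library of the first group was far above the highest of the second. Itpr2, a calcium release channel of the endoplasmic reticulum, was 11.7-fold higher (1467 ± 98.3 against 126 ± 7.0 CPM). Rras2, a small GTPase, was 13.1-fold higher (995 ± 59.2 against 75.8 ± 7.7 CPM). The noncoding RNA 9630013A20Rik was 15.7-fold higher (2861 ± 326 against 182 ± 32.5 CPM). Enpp6, a choline phosphodiesterase used as a marker of newly formed cells, differed less, at 358 ± 28.1 against 263 ± 13.2 CPM, although it was higher in 6 of 6 libraries.

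Genes of contact with the axon fell on both sides. Of 22 measured, 5 were at least 2-fold higher and 5 lower. Tnr, the matrix protein tenascin-R, was 9.5-fold higher, at 1614 ± 69.0 against 170 ± 12.1 CPM, and Nfasc, the adhesion molecule neurofascin found at paranodes and nodes, was 5.96-fold higher, at 6372 against 1070 CPM. Cntn2, the juxtaparanodal contactin, was 3.38-fold lower. Regulators of the actin skeleton were also divided, with 5 of 39 higher and 6 lower, among them Fyn, a kinase that acts early in process growth, 5.07-fold higher and Gsn, the actin-severing gelsolin, 2.21-fold lower.

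Among the myelin protein genes, none of 22 measured outside the rule was at least 2-fold higher and 4 were lower, namely Gjb1, a gap junction protein (8.8-fold), Mal, a myelin proteolipid (6.81-fold), Ermn, an actin-binding protein of the outer sheath (3.59-fold), and Omg (2.59-fold). Mbp, at 8584 against 9142 CPM, and Opalin, at 96.8 ± 5.8 against 112 ± 13.6 CPM, lay close together. Of the 2 myelin genes in the rule, Mag, an adhesion molecule facing the axon, was higher (1626 ± 80.5 against 998 ± 68.7 CPM) and Mog, a glycoprotein of the outermost lamella, was lower (561 ± 27.6 against 1365 ± 51.1 CPM). Mag was higher and Mog lower in all 6 libraries.

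Among mature genes, Trf, the iron carrier transferrin, was 6.06-fold lower, at 159 ± 10.2 against 964 ± 47.9 CPM. Apod, a lipid carrier, was 7.61-fold lower and Car2, carbonic anhydrase II, 3.25-fold lower. Ndrg1, 9.0-fold lower, and Aspa, which cleaves N-acetylaspartate, 5.64-fold lower, belonged to the same list. By fold alone, the leading genes outside the rule were Gm42825 (16.3-fold, 70.8 against 4.3 CPM), Rassf10 (33.2 against 2.1 CPM) and 9630013A20Rik on the higher side. On the lower side they were Rab37, a small GTPase of vesicle release (65.2-fold, 0.71 against 46.3 CPM), Gm32122 (27.3-fold) and 4930420G21Rik (21.7-fold). Cholesterol synthesis did not separate these groups, with 0 of 23 genes 2-fold apart and a median log2 ratio of 0.02.

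**Figure D1:**
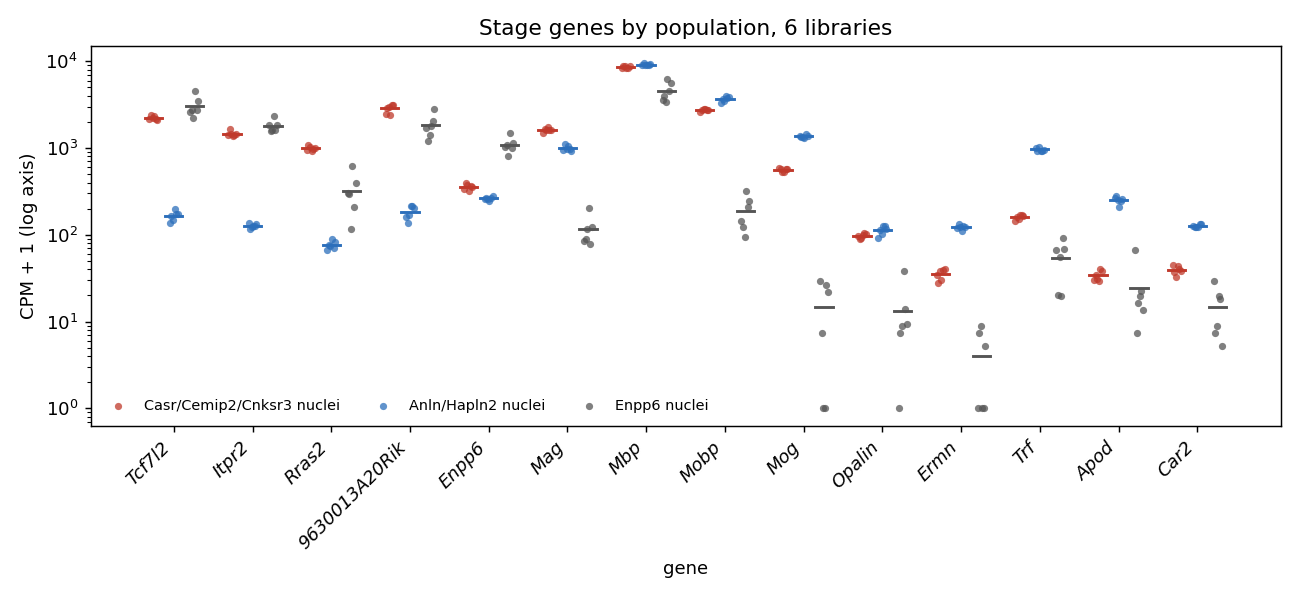
Levels of 14 stage genes (CPM + 1, log axis) in Casr/Cemip2/Cnksr3 nuclei (red), Anln/Hapln2 nuclei (blue) and Enpp6 nuclei (gray), with 1 point per library and a bar at the mean of 6 libraries. Tcf7l2, Itpr2 and 9630013A20Rik are high in red and gray and low in blue, Rras2 is highest in red and intermediate in gray, and Trf, Apod and Car2 are highest in blue.

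On the younger side, the nuclei were set beside Enpp6 nuclei, which had at least 3 UMIs of Enpp6 and no more than 1 of Mog and Mag. Few nuclei met this rule, 14 to 54 a library, so values in them vary widely. Of 7631 genes, 413 (5.41%) were at least 2-fold higher in the Casr/Cemip2/Cnksr3 nuclei on average and higher in each of the 6 libraries, and 273 (3.58%) were lower by the same measure. Myelin protein genes were mostly higher here, 11 of 20 with 2 lower. Mobp was 14.6-fold higher (2729 ± 77.9 against 187 ± 84.4 CPM). Ermn was 11.2-fold and Opalin 7.99-fold higher, but these folds are rough, with 3 UMIs of Ermn and 9 of Opalin in all Enpp6 nuclei. Bcas1, a marker of early myelinating cells, was 2.51-fold lower. Of 23 cholesterol synthesis genes, 12 were at least 2-fold higher and 0 lower, with a median log2 ratio of 1.02 beside -0.18 over all genes. Idi1, Hmgcs1, Sqle and Fdft1, enzymes of that pathway, were 4.27, 2.86, 2.32 and 2.08-fold higher.

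By fold, Tnni1, a troponin, was 49.2-fold higher, although it had only 6 UMIs in all Enpp6 nuclei. Creb5, a transcription factor, was 40.1-fold higher (1241 ± 60.6 against 31.0 ± 14.2 CPM). Cldn14, a claudin, was 20.4-fold higher. Il12rb1, Car14 and Slc45a3 had no UMI among 917615 in Enpp6 nuclei, and with a floor of 3 counts over the group they were at least 9.78, 8.09 and 6.99-fold higher. Genes that were lower included Arhgap24, a Rac-directed GTPase activator (10.6-fold, 66.6 ± 9.5 against 706 ± 227 CPM), Sox6, a factor that holds back differentiation (6.12-fold), Vcan, a proteoglycan of precursors (7.14-fold), and Tnr (3.67-fold). Tcf7l2 was at 3057 ± 829 CPM and Itpr2 at 1795 ± 280 CPM in Enpp6 nuclei, and each was higher in 1 of 6 libraries in the Casr/Cemip2/Cnksr3 nuclei.

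Receptors of LPA itself were expressed unevenly. Lpar1 was at 343, 360 and 364 CPM in the LPA libraries and 327, 342 and 356 CPM in the vehicle libraries, and in Anln/Hapln2 nuclei it was between 178 and 215 CPM and in Enpp6 nuclei between 171 and 373 CPM. Lpar6 was lower than in Anln/Hapln2 nuclei, at 8.6 to 13.7 CPM against 40.4 to 63.7 CPM, 5.01-fold lower, and it had 3 UMIs in all Enpp6 nuclei. Enpp2 encodes autotaxin, the enzyme that makes LPA, and was 3.33-fold higher than in Enpp6 nuclei (1060 against 319 CPM).

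To see how the nuclei varied among themselves, they were divided into 4 bins of equal size by the UMIs of Casr, Cemip2 and Cnksr3 per 10000 UMIs of a nucleus. The lowest bin ran from 1.15 to 15.3 and the highest from 79.0 to 263. The lowest bin was the deepest, with medians of 7191, 5893, 5912 and 5835 UMIs from the lowest bin to the highest. The rule asks for at least 4 selecting UMIs, so a nucleus with a low rate could be counted only if it was deep enough. The part of depth in the differences between bins was not tested. Each library had between 20.5% and 29.2% of its nuclei in each bin. Since these genes selected the nuclei, the bins are a description without a test. Of 7369 genes, 324 (4.4%) were at least 2-fold higher in the highest than in the lowest bin on average and higher in each of the 6 libraries, and 1597 (21.7%) were lower by the same measure.

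Opalin was 21.3-fold lower in the highest than in the lowest bin, at 201 ± 9.4, 99.0, 34.1 and 9.4 ± 5.5 CPM in order. In the lowest bin it lay between 189 and 215 CPM and in the highest between 2.6 and 19.0 CPM, so that the ranges over libraries did not meet. Mog was 3.44-fold lower, at 896 ± 73.9 and 261 ± 32.2 CPM at the ends, and Ermn 4.79-fold lower. Mag was higher in the highest bin, going from 1372 ± 85.5 to 2088 ± 172 CPM, and Mbp from 7363 ± 441 to 10638 ± 205 CPM, each in 6 of 6 libraries. Mobp lay close, with 2865 ± 171 and 3006 ± 136 CPM at the ends. Mog and Opalin thus ran against Mag and Mbp within these nuclei.

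Newly formed markers followed the selecting genes. Tcf7l2 went from 700 ± 69.4 through 2073 and 2914 to 3922 ± 288 CPM, Itpr2 from 406 ± 57.9 to 2751 ± 94.9 CPM, and Rras2 from 185 ± 29.3 to 2157 ± 114 CPM. Enpp6 was 2.59-fold higher in the highest bin, nearly all of it between the lowest bin (180 ± 33.9 CPM) and the next (428 CPM). The transcription factors of the lineage Sox10 and Myrf were 2.60 and 1.94-fold higher there. Sox6 was highest in the second lowest bin (328 CPM) and lowest in the highest bin (64.7 ± 15.9 CPM). Among mature genes, Car2 was highest in the lowest bin, at 76.3 ± 6.0 against 10.2 ± 2.7 CPM in the highest, as were Apod at 62.0 ± 8.1 against 14.8 ± 4.6 CPM and Trf at 241 ± 32.4 against 128 ± 21.5 CPM. Il33, a nuclear cytokine, lay close at 7.1 ± 3.1 and 7.7 ± 2.0 CPM. Anln and Hapln2 are capped by the rule, and read 7.1 and 9.7 CPM in the lowest and 3.8 and 13.4 CPM in the highest bin.

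Genes with the greatest differences outside the rule, chosen after their values were seen, included Casp8, an initiator of cell death signaling (15.3-fold higher in the highest bin), Fam107b (14.3-fold) and Carmil1, a regulator of actin capping (8.7-fold). On the other side stood D7Ertd443e (24.2-fold lower), Edil3, an integrin ligand (15.1-fold), and Prr5l, a partner of mTOR complex 2 (14.4-fold). RNA of other cell classes differed between bins too, as Slc1a2, an astrocyte glutamate transporter, went from 775 ± 92.0 to 244 ± 105 CPM and Meg3, abundant in neurons, from 1977 ± 478 to 564 ± 81.8 CPM. Their part in the lower levels of other genes was not tested.

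**Figure D2:**
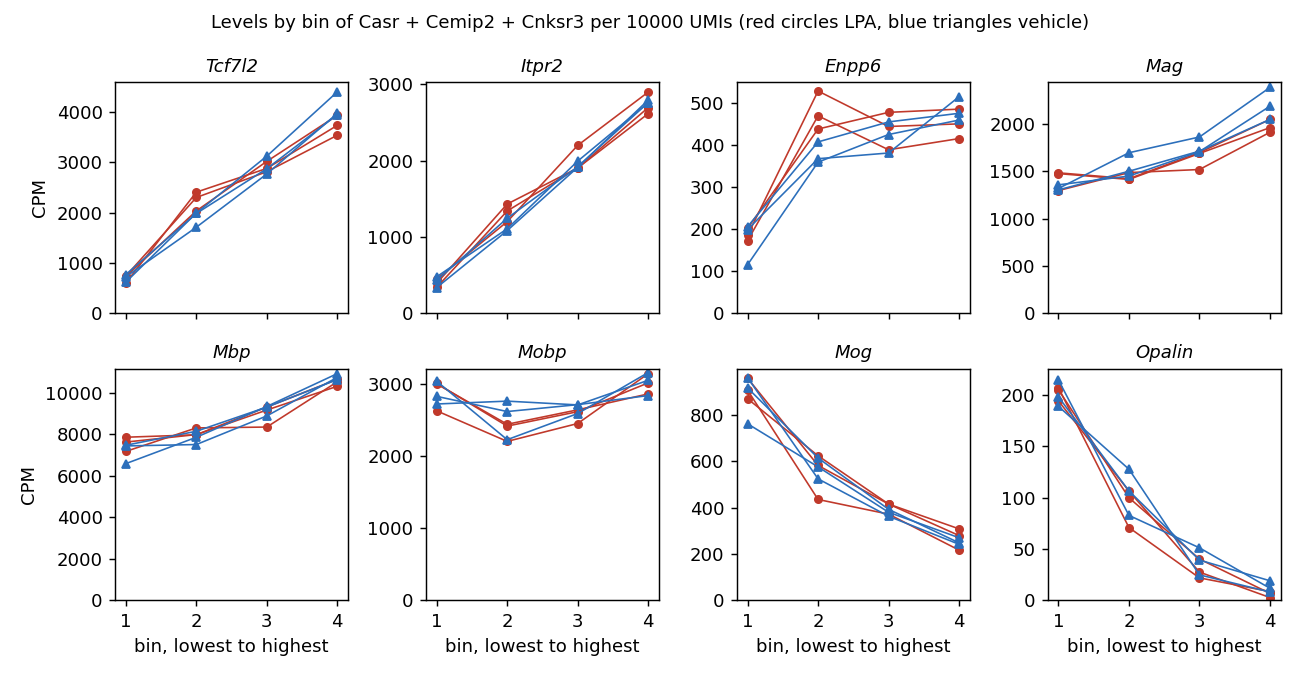
Levels (CPM) of 8 genes in the 4 bins of Casr/Cemip2/Cnksr3 nuclei ordered by Casr, Cemip2 and Cnksr3 UMIs per 10000 UMIs, with 1 line per library (red circles LPA, blue triangles vehicle). Tcf7l2, Itpr2 and Mbp are higher in the highest than in the lowest bin in every library, and Mog and Opalin lower.

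The number of these nuclei after LPA was then compared. They made up 5.61, 6.48 and 6.70% of the nuclei kept in the LPA libraries and 8.32, 7.07 and 6.47% in the vehicle libraries, with means of 6.26 ± 0.578% and 7.29 ± 0.944% (SD, n = 3). The groups overlapped and the difference of -1.02 percentage points gave p = 0.3 in a two-sided exact permutation test. With 20 assignments of 3 against 3 libraries this test cannot go below 0.1. Of the nuclei with Mog or Mag that passed the precursor limits, they made up 29.9 ± 2.23% after LPA and 26.4 ± 3.47% after vehicle (exact permutation p = 0.2). All Mog/Mag nuclei together were 20.9 ± 0.529% and 27.6 ± 1.62% of the nuclei kept, without overlap between groups (exact permutation p = 0.1, the smallest possible). With nuclei thinned to 3000 UMIs and shallower nuclei left out, Mog/Mag nuclei were 22.4, 24.4 and 24.4% of the nuclei kept in the LPA libraries. In the vehicle libraries they were 32.0, 34.2 and 32.2%, so that the groups stayed apart at equal depth per nucleus. A share of sorted nuclei depends on the other nuclei in the sort, and a nucleus needs a number of Mog and Mag UMIs to be counted. Whether there were fewer such cells or less RNA of these genes per cell was not tested.

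**Figure D3:**
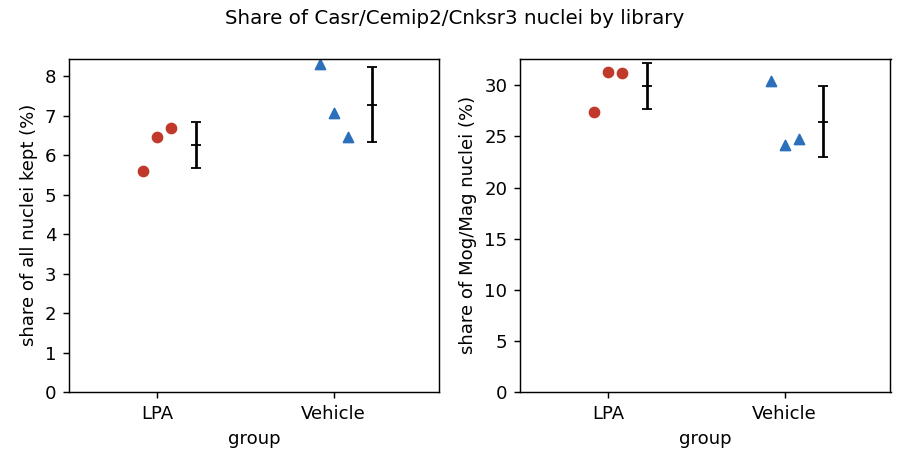
Share of Casr/Cemip2/Cnksr3 nuclei (%) among all nuclei kept (left) and among Mog/Mag nuclei (right), with 1 point per library and the mean ± SD of 3 libraries in black. The LPA and vehicle libraries overlap in both panels.

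Expression after LPA differed in few genes. UMIs were summed over these nuclei in each library, and 12 of 14036 genes (0.0855%) passed edgeR's quasi-likelihood test at an adjusted p under 0.05 and a log2 change of at least 0.25, 5 higher after LPA (0.0356% of genes) and 7 lower (0.0499%). An unadjusted p under 0.05 was reached by 1236 genes (8.81%), 576 higher (4.1%) and 660 lower (4.7%), and the median log2 change over all genes was -0.004. DESeq2 called 21 genes. With 1 library left out, edgeR called between 2 (without vehicle replicate 3) and 25 genes (without LPA replicate 1). Neat1 and Bmp6 passed whichever library was left out, although Neat1 missed with thinned nuclei and Bmp6 in 4 of 17 alternative settings, mt-Co2 and mt-Co3 in all but the fit without vehicle replicate 3, and the others were each lost without 2 to 5 of the libraries, vehicle replicates 1 and 3 among them. In 1974 genes (14.1%), the 12 among them, LPA and vehicle libraries were fully apart. Of the 1788 genes with a mean of at least 100 normalized CPM, 1708 (95.5%) changed by less than 0.25 on the log2 scale.

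Neat1, a nuclear noncoding RNA that builds paraspeckles, stood at 145, 131 and 130 normalized CPM after LPA and at 74.8, 78.7 and 97.2 after vehicle. The lowest LPA library was above the highest vehicle library, and the log2 change was 0.70 (SE 0.095, adjusted p = 0.0152 by edgeR). Btaf1, a regulator of the TATA-binding protein, was at 145, 148 and 148 against 110, 114 and 106 normalized CPM (log2 change 0.41, SE 0.0655, adjusted p = 0.0333 by edgeR). It missed the threshold in 9 of 17 alternative settings, with log2 changes between 0.37 and 0.47 over the 17.

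Gfap, the astrocyte intermediate filament, was at 28.6, 17.2 and 20.0 normalized CPM after LPA and at 8.9, 7.8 and 9.4 after vehicle (log2 change 1.32, SE 0.198, adjusted p = 0.0242 by edgeR). It missed the threshold in 7 of 17 alternative settings, with log2 changes down to 0.79 with an upper UMI limit and 0.81 with thinned nuclei. In all other nuclei its mean was 60.2 CPM after LPA and 20.8 CPM after vehicle. Gpnmb, a glycoprotein of activated microglia and macrophages, was at 4.0, 8.9 and 4.1 against 0.40, 0.17 and 0.66 normalized CPM (adjusted p = 0.0191 by edgeR), from 87 UMIs in all. In all other nuclei it was at 16.9 CPM after LPA and 0.63 CPM after vehicle. Cdc20b, a gene of multiciliated cells, was at 5.0, 3.6 and 7.4 against 0.20, 0.85 and 0.44 normalized CPM (adjusted p = 0.0225 by edgeR), from 82 UMIs, and elsewhere at 18.6 CPM after LPA and 2.3 CPM after vehicle. These 3 genes thus had higher means after LPA in the rest of the nuclei too, at higher levels there. Summed over 7 astrocyte markers other than Gfap, led by Slc1a2, the nuclei held 1466, 1423 and 1193 CPM after LPA and 1241, 1532 and 1289 CPM after vehicle, and over 10 markers of microglia and macrophages other than Gpnmb, led by Cx3cr1, they held 152, 147 and 106 against 99.8, 165 and 81.7 CPM, with overlapping groups in both and 0 of the markers at 0. Of 8 astrocyte markers, Gfap included, 5 had a positive log2 change and 3 a negative one (median 0.06). Over all 14036 genes 6863 had a positive one. Aqp4 was among the 5 positive markers, with an unadjusted p under 0.05 by edgeR on the higher side (4.1% of all genes). It was at 24.5, 25.9 and 21.8 CPM after LPA and at 18.1, 19.9 and 18.0 CPM after vehicle, without overlap (as in 14.1% of all genes). Over 4 ependymal and choroid plexus markers, led by Ttr, the Casr/Cemip2/Cnksr3 nuclei held 90.1, 71.7 and 80.5 against 90.9, 43.7 and 65.3 CPM. Of these markers 3 were tested, and 3 had a positive log2 change (median 0.38), beside 6863 of all 14036 genes. Among them Cfap299 (0.65) had an unadjusted p under 0.05 by edgeR on the higher side (4.1% of all genes). The part of RNA from other cells in Gfap, Gpnmb and Cdc20b was not tested.

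Bmp6, a secreted ligand of the BMP family that was the most abundant of 10 vascular and meningeal markers in all other nuclei, had the lowest p. It was at 25.1, 25.1 and 27.4 normalized CPM after LPA and at 49.3, 55.4 and 50.1 after vehicle, with a log2 change of -0.996 (SE 0.102, adjusted p = 0.00221 by edgeR). In all other nuclei it was at 107 CPM after LPA and 195 CPM after vehicle. Summed over the 9 other markers of that list, the Casr/Cemip2/Cnksr3 nuclei held 146, 113 and 121 CPM after LPA and 178, 159 and 146 CPM after vehicle, with groups that met at one library each, and 0 of the 10 was at 0. Of the 10 markers, 8 had a negative log2 change and 2 a positive one (median -0.46), beside 7173 of all 14036 genes with a negative one. Bmp6, Slc6a20a and Col1a1 had an unadjusted p under 0.05 by edgeR on the lower side (4.7% of all genes). The part of RNA from vascular and meningeal cells in the Bmp6 difference was not tested. Bmp6 missed the threshold with an upper UMI limit, with thinned nuclei and without Scrublet doublets (log2 change -0.65, adjusted p = 0.672 by edgeR). Without the nuclei that had at least 3 UMIs of other-class markers, Bmp6 had a log2 change of -0.98 (adjusted p = 0.554 by edgeR) and Gfap one of 1.08 (adjusted p = 0.43 by edgeR), and neither passed the threshold. Kcnb2, a potassium channel subunit (135, 115 and 122 against 170, 162 and 197 normalized CPM), and Robo1, a receptor of Slit guidance cues (258, 222 and 268 against 343, 364 and 325), were lower by 0.51 and 0.47 on the log2 scale, with adjusted p-values of 0.0466 and 0.0486 by edgeR. In all other nuclei Kcnb2 was at 459 CPM after LPA and 528 CPM after vehicle, and Robo1 at 894 and 1015 CPM. With nuclei thinned to 3000 UMIs their log2 changes were -0.25 and -0.12, and without nuclei with other-class markers -0.30 and -0.13, and neither passed the threshold in these settings. Of 9 neuron markers, led by Meg3, 9 had a negative log2 change in the Casr/Cemip2/Cnksr3 nuclei (median -0.26), beside 7173 of all 14036 genes, and 3 of them had an unadjusted p under 0.05 on the lower side (4.7% of all genes) and 0 passed the threshold. Their sums were 2062, 1477 and 2146 CPM after LPA and 2478, 2090 and 2253 CPM after vehicle, with overlap, and 0 of the 9 was at 0. The part of neuronal RNA in Kcnb2 and Robo1 was not tested.

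The 4 remaining genes that fell, mt-Co2, mt-Co3, mt-Nd2 and mt-Nd4, are transcribed in mitochondria. mt-Co3 was at 46.2, 54.2 and 89.6 normalized CPM after LPA and at 191, 138 and 216 after vehicle, a log2 change of -1.51 (SE 0.198, adjusted p = 0.0142 by edgeR). Mitochondrial RNA in a nuclear preparation comes from outside the nucleus, and mt-Co3 was also at 85.9 CPM after LPA and 215 CPM after vehicle in all other nuclei. Without the limit on mitochondrial UMIs none of the 4 passed the threshold, and mt-Co3 had a log2 change of -1.41 (adjusted p = 0.0566 by edgeR).

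**Figure D4:**
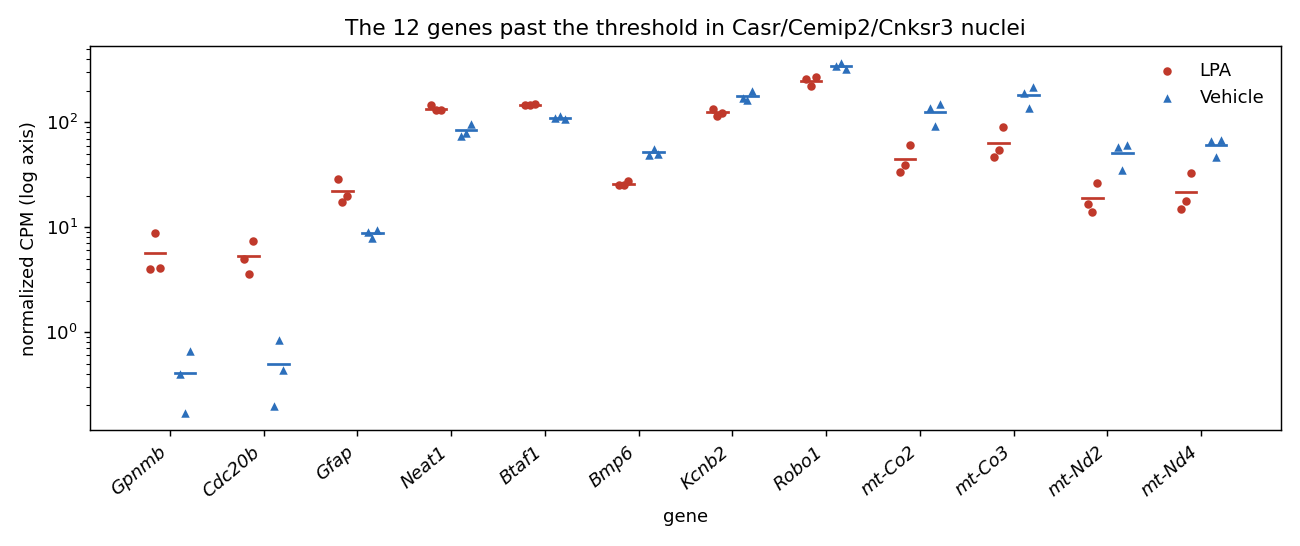
Normalized CPM (log axis) of the 12 genes past the threshold in Casr/Cemip2/Cnksr3 nuclei, with 1 point per library (red circles LPA, blue triangles vehicle) and a bar at each mean of 3 libraries. Gpnmb and Cdc20b lie below 10 CPM in every library, and the groups overlap in none of the 12.

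None of the myelin and stage genes passed the test. In 17 gene lists covering myelin, lipid synthesis, lineage factors, signaling, stress, immunity and iron, 0 genes passed the threshold outside the rule in either direction. Of 23 myelin protein genes tested, 1 had an unadjusted p under 0.05 on the higher side (Cd9, beside 4.1% of all genes) and 2 on the lower (Mal and Omg, beside 4.7%), and the median log2 change was 0.02. Mbp was at 8387, 9051 and 8896 against 8229, 8382 and 8803 normalized CPM, a log2 change of 0.05 (95% CI -0.04 to 0.15), and Mobp had a log2 change of 0.0026 (95% CI -0.11 to 0.11). Tcf7l2 (0.07, 95% CI -0.06 to 0.19) and Itpr2 (0.12, 95% CI -0.02 to 0.27) were called in no direction. Opalin was at 96.4, 91.0 and 93.1 against 96.2, 105 and 101 normalized CPM (log2 change -0.11, adjusted p = 0.706 by edgeR). Of 21 newly formed genes tested, 18 had a positive log2 change (median 0.07), beside 6863 of all 14036 genes. On the higher side 2 of them had an unadjusted p under 0.05 (4.1% of all genes). Of 29 mature genes, 16 had a negative log2 change (median -0.02), beside 7173 of all 14036 genes. Of these 29, 3 had an unadjusted p under 0.05 on the lower side (4.7% of all genes) and 1 on the higher (4.1%). Sums over 7 mature markers, including the capped Anln and Hapln2, were 239, 246 and 234 CPM after LPA. After vehicle they were 263, 275 and 265 CPM, without overlap, as in 14.1% of all single genes. The cap counts UMIs per nucleus and these nuclei were deeper after LPA, so the sums are given as a description only. In all other nuclei the mean sum was 338 CPM after LPA and 429 CPM after vehicle. In Anln/Hapln2 nuclei it was 2165 CPM after LPA and 2073 CPM after vehicle. Of 24 cholesterol synthesis genes, 3 had an unadjusted p under 0.05, all higher (Hsd17b7, Fdft1 and Srebf2, beside 4.1% of all genes), and the list had a median log2 change of 0.04.

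Of 22 glucocorticoid targets and receptors tested, 6 had an unadjusted p under 0.05 on the lower side (4.7% of all genes) and 1 on the higher (4.1% of all genes), with a median log2 change of -0.14 beside -0.004 over all genes. Zbtb16, a hormone-induced zinc finger factor, was at 33.7, 23.9 and 19.4 against 39.8, 38.6 and 40.9 normalized CPM (log2 change -0.65, adjusted p = 0.191 by edgeR). Fkbp5, a chaperone partner of the receptor, had a log2 change of -0.29 (adjusted p = 0.493 by edgeR), beside -0.92 (adjusted p = 0.00289 by edgeR) in Anln/Hapln2 nuclei, and the interaction between these did not pass (adjusted p = 0.18 by edgeR). In all other nuclei Zbtb16 was at 89.8 CPM after LPA and 142 CPM after vehicle, and Fkbp5 at 64.6 and 125 CPM, and the vascular and neuron marker sums given above were also lower on average after LPA in the Casr/Cemip2/Cnksr3 nuclei. Their part in these genes was not tested. Interferon response genes had a median log2 change of 0.24 over 15 tested of 39 listed, beside -0.004 over all genes. Of the 15, 13 had a positive log2 change, beside 6863 of all 14036 genes. On the higher side 1 of them, Rnf213, had an unadjusted p under 0.05 (4.1% of all genes). Markers of microglia and macrophages had a median of 0.18, with 8 of 11 above 0, beside 6863 of all 14036 genes. The part of microglial and macrophage RNA in the interferon response genes was not tested. C4b, a complement component, was at 12.6, 6.5 and 11.9 against 3.8, 6.1 and 3.7 normalized CPM (log2 change 1.14, adjusted p = 0.205 by edgeR), and in all other nuclei at 31.8 CPM after LPA and 11.3 CPM after vehicle.

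LPA receptors did not pass the threshold. Lpar1 had a log2 change of 0.08 (SE 0.067, adjusted p = 0.773 by edgeR), Lpar3 one of 0.10 (SE 0.24), Lpar4 one of 0.38 (SE 0.424) and Lpar6 one of -0.25 (SE 0.185, adjusted p = 0.741 by edgeR). Lpar2 and Lpar5, with 25 and 5 UMIs, were too low to be tested. Enpp2 had a log2 change of 0.11 (adjusted p = 0.63 by edgeR). Arhgap24 was at 64.5, 72.6 and 55.4 against 56.6, 72.3 and 80.1 normalized CPM, with overlapping groups.

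**Figure D5:**
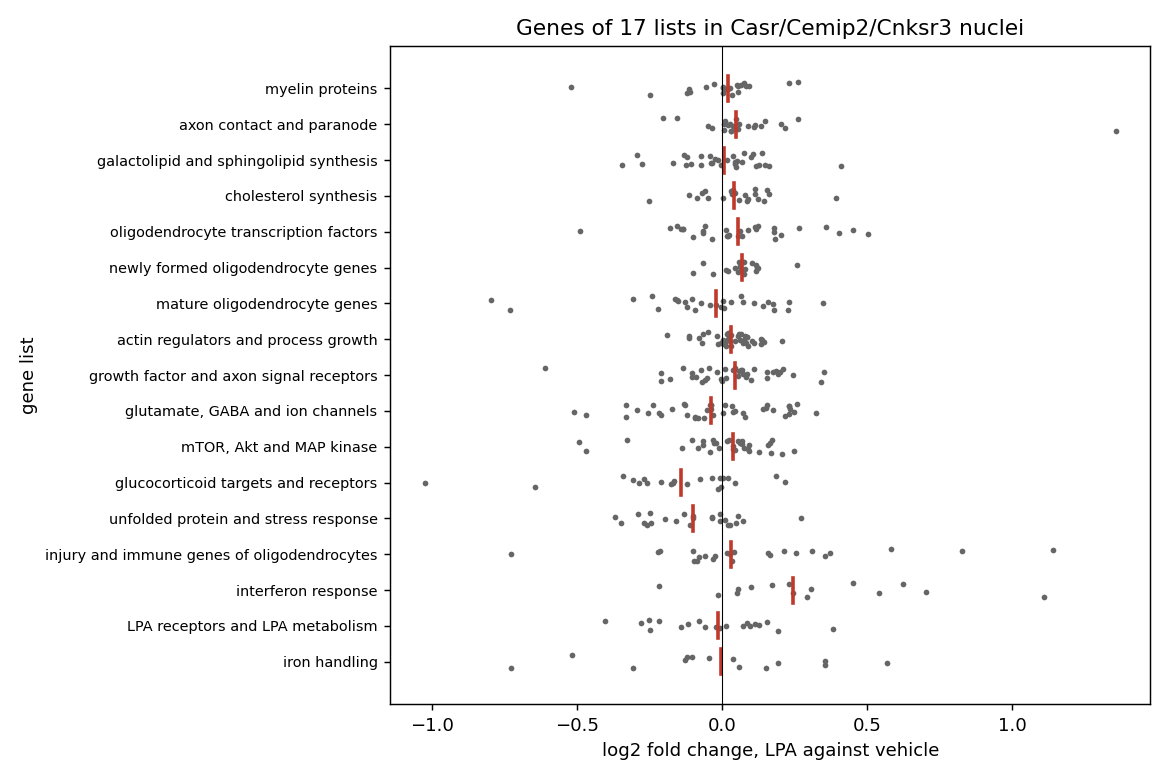
Log2 fold changes of LPA against vehicle in Casr/Cemip2/Cnksr3 nuclei for the tested genes of 17 lists, with 1 point per gene (vertical scatter within a list is arbitrary) and a red bar at the median. Medians lie between -0.14 (glucocorticoid targets and receptors) and 0.24 (interferon response).

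Finally, the LPA difference was compared with that in neighboring nuclei by an interaction term with each library as a block. Against Anln/Hapln2 nuclei 0 of 14566 genes passed edgeR's test (811 at an unadjusted p under 0.05, lowest adjusted p = 0.0579), and against low nuclei 0 of 15438 passed (1179, lowest adjusted p = 0.0557). These counts went up to 8 and 20 with 1 library left out. Tested alone, Anln/Hapln2 nuclei had 63 of 13509 genes past the threshold (0.466%) and low nuclei 111 of 15322 (0.724%), but the interaction did not find that their response differed at this setting. The count against Anln/Hapln2 nuclei changed with the processing, to 51 with an upper UMI limit, 14 without nuclei with other-class markers, 11 with nuclei thinned to 3000 UMIs and 9 at 6 or more selecting UMIs. Btaf1, for instance, had a log2 change of 0.38 in Anln/Hapln2 nuclei and 0.35 in low nuclei, beside 0.41 here. Bmp6 had -1.40 and -0.80 beside -0.996, Gfap 1.76 and 1.75 beside 1.32, and Gpnmb 3.56 and 4.52 beside 3.80. These genes and the called mitochondrial ones passed the threshold in both when tested alone. Cdc20b passed in low nuclei (2.77) and was not tested in Anln/Hapln2 nuclei. Neat1 (0.38 and 0.27), Kcnb2 (-0.31 and -0.21) and Robo1 (-0.02 and -0.235) passed in neither. Low nuclei held more RNA of other classes, with Meg3 at 3025 CPM beside 1325 CPM. Against Enpp6 nuclei 11 of 12733 genes passed (0.0864%), 3 (0.0236%) with a more positive and 8 (0.0628%) with a more negative difference in Casr/Cemip2/Cnksr3 nuclei. The genes with the lowest p were Fam155a, at -1.48 (adjusted p = 0.0018 by edgeR), and Spock1, at -2.60 (adjusted p = 0.00869 by edgeR), and they rest on 14 to 54 Enpp6 nuclei a library. Spock1 turned to 0.58 with nuclei thinned to 3000 UMIs, and both missed the threshold without Scrublet doublets and without vehicle replicate 3. The count was 1 without vehicle replicate 3, 7 without LPA replicate 3 and 40 without vehicle replicate 2.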

How the data were processed

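Nuclei of 3 LPA and 3 vehicle libraries were grouped by the labels. The authors made the deposited matrices of raw UMI counts with Cell Ranger 4.0.0 against mm10, counting introns through a pre-mRNA annotation. They hold 32285 genes without normalization. Libraries had 48852970 to 65688644 UMIs. The study's Seurat clusters, its upper UMI limit and its Wilcoxon test over nuclei were not used; an upper limit of 1.5 interquartile ranges was an alternative.

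Nuclei were chosen by UMI thresholds, and the members and gene lists were chosen with earlier results of these data known. Doublets were kept: Scrublet (expected rate 0.08) called 20.3% to 27.6% of the chosen nuclei and 17.2% to 20.5% of all nuclei, and 26.2% to 37.2% of the chosen nuclei had at least 3 UMIs of 18 markers of other classes. Summed over 8 astrocyte genes, the pooled chosen nuclei held 1373 CPM, beside 1581 CPM in Anln/Hapln2 nuclei and 3049 CPM in low nuclei. All other nuclei, which include the astrocytes, held 4099 CPM.

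UMIs were summed per library. Levels are CPM; tests used edgeR 4.0.16 (TMM normalization, filterByExpr, quasi-likelihood; R 4.3.3), with Benjamini-Hochberg adjustment over all genes tested. Alternatives included DESeq2 1.42.0. In simulated counts in which 200 genes had a log2 change of 1, 76.5% were recovered in the chosen nuclei over 13860 genes, with 16 false calls. Shares were compared by exact permutation. Genes were named by rule: genes of the selection rule, up to 10 called genes a direction leaving out sex-linked and mitochondrial genes, up to 3 called a list and direction, LPA receptors and Enpp2, 10 genes of greatest and least ratio between populations, up to 5 called genes a direction of each interaction, and Arhgap24, Opalin, Xist and Gfap. Other named genes, the mitochondrial ones included, were chosen after their values were seen. Nuclei were handled with scanpy 1.11.5 and tables with pandas 2.3.3 in Python 3.11.15.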

Additional observations from a re-analysis of the deposited data

Results flagged for a closer look

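In 8 named genes the LPA difference in Casr/Cemip2/Cnksr3 nuclei differed from that in Enpp6 nuclei by the interaction test. The difference was more positive in the Casr/Cemip2/Cnksr3 nuclei by 2.49 on the log2 scale for Bnc2, 1.18 for Pik3r3 and 1.13 for Fam13c. It was more negative for Fam155a (-1.48), Spock1 (-2.60), Frmpd4 (-1.58), Reln (-2.11) and Adamts9 (-2.73). None of the 8 passed the threshold without vehicle replicate 3, and 3 of them changed sign in 1 setting each, Bnc2 with an upper UMI limit (-1.13) and Reln (0.57) and Spock1 (0.58) with nuclei thinned to 3000 UMIs. Over 13 alternative settings Frmpd4 ranged from -2.86 to -0.08, Fam155a from -1.94 to -0.48 and Adamts9 from -5.24 to -1.06. Bnc2 reached 5.74, while Pik3r3 ranged from 0.62 to 1.31 and Fam13c from 0.61 to 1.37. Fam155a also missed the threshold with thinned nuclei. In the Casr/Cemip2/Cnksr3 nuclei alone none of the 8 passed the threshold, and Reln was at 27.4, 89.6 and 59.1 normalized CPM after LPA and at 33.9, 74.7 and 49.0 after vehicle. The Enpp6 nuclei alone, 14 to 54 a library, had 0 genes past edgeR's threshold (192 of 2888 at an unadjusted p under 0.05).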

How the results depend on the processing

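Both shares kept their direction in every setting tried, and the exact test of 3 against 3 libraries could not pass in any. The number of genes past the threshold in Casr/Cemip2/Cnksr3 nuclei was 12, and 5 without a limit on mitochondrial UMIs, 5 without Scrublet doublets, 5 with Xist as a covariate, 21 with DESeq2 and 271 without a filter on low counts. Leaving out 1 library gave 2 (without vehicle replicate 3) to 25 (without LPA replicate 1), with 7 without vehicle replicate 1 and 24 without vehicle replicate 2. With the replicate number as a block it was 76, of which 18 were higher, but same-numbered libraries share only a number: the correlations of their deviations from the group means were 0.084, 0.165 and 0.065. Only Neat1 of the 12 passed in 16 of 17 settings, and missed with nuclei thinned to 3000 UMIs. Bmp6 missed in 4, Btaf1 in 9, Kcnb2 in 11 and Robo1 in 12 of 17. Against Anln/Hapln2 nuclei the interaction went from 0 genes to 51 with an upper UMI limit, 11 when thinned, 9 at 6 selecting UMIs, 14 without nuclei with other-class markers, 6 with RLE size factors, 48 without a filter on low counts, and 0 to 8 (without LPA replicate 2 or vehicle replicate 2) leaving out 1 library. Against low nuclei it went from 0 to 2 without the mitochondrial limit, 4 with the upper limit, 10 when thinned, 1 without Scrublet doublets, 120 without a filter on low counts, and 0 to 20 (without LPA replicate 1) leaving out 1 library. Against Enpp6 nuclei it went from 11 to 112 with the upper limit, 1 when thinned, 6 without Scrublet doublets, and 1 (without vehicle replicate 3) to 40 (without vehicle replicate 2) leaving out 1 library. There Bnc2 turned to -1.13 with the upper limit, Reln to 0.57 and Spock1 to 0.58 when thinned, and Kcnc2 to 0.70 without Scrublet doublets. The causes were not tested. The fit without other-class nuclei was not run for Enpp6 nuclei, which were then under 10 in a library. A simulated log2 change of 1 was recovered in 63% of genes against Anln/Hapln2 nuclei, 63.5% against low nuclei and 2% against Enpp6 nuclei.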
